A study of Canis lupus familiaris with 45 samples.

Results

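Heat shock chaperones of the cytosol and mitochondria were followed in the left ventricle of dogs driven into heart failure by rapid pacing. The genes were taken by a name rule that uses no measured value, although they were chosen with earlier results of these data known. The rule took every probe set annotated with a single gene symbol starting with HSPA, HSPB, HSPD, HSPE, HSPH, HSP90A or DNAJ. It also took those with BAG or CCT followed by a digit, and TCP1, and left out HSPA5 and HSPBP1. This gave 79 of the 23836 probe sets on the array that are not controls, for 46 of 6540 named genes. After probe sets with low signal were left out, 69 chaperone probe sets for 45 genes were among the 14302 tested. DNAJB13 had no tested probe set. The name rule also takes DNAJ proteins of the endoplasmic reticulum and HSPBAP1, a binding partner of HSPB1 that is no chaperone itself.

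All 15 dogs were male and of matched age, and each gave 1 transmural left ventricular tissue sample. The control group, Day-0, was unpaced. The Day-3, Week-1 and Week-2 groups were paced from the right ventricle at 240 beats per minute for 3 days, 1 week and 2 weeks, and the End-stage group for 3 to 4 weeks, until failure was verified by haemodynamics. Pacing started after a thoracotomy to place the pacemaker, and the labels do not say whether the Day-0 dogs had this operation. Each group held 3 dogs, and 3 RNA isolations of each tissue sample were each hybridised to an array, so that 45 arrays measure 15 animals. The dog was the replicate. The tissue was whole myocardium, so fewer cells of a type and less RNA per cell cannot be told apart.

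Chaperones bind unfolded or damaged proteins and help them fold or hand them to degradation. HSP70 works in cycles of ATP use that J-proteins (DNAJ) start and that HSP110 and several BAG proteins end by releasing the nucleotide. HSP90 completes the folding of signalling proteins, and small heat shock proteins hold unfolding proteins without using ATP. The chaperonins CCT (in the cytosol) and HSPD1 with HSPE1 (in mitochondria) fold proteins inside a closed chamber. Heart muscle is rich in small heat shock proteins, and BAG3 with HSPB8 serves the turnover of damaged proteins at the Z-disc.

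Array medians lay between 33.3 and 48.5 signal units. Arrays were compared only among dogs of the same number, so a mix-up between dogs of different numbers could not be seen. In 1 pair of animals, dog 1 of Week-1 and dog 1 of End-stage, 4 of the 6 arrays correlated best with an array labelled as the other animal. Within the same number, the arrays of the remaining dogs each correlated best with their own. Labels were kept, and the counts that changed without both dogs are given in both forms. Among the tested chaperone probe sets the median SD was 0.23 between dogs of a group and 0.24 between isolations of a dog, on the log2 scale.

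No chaperone probe set passed the test in any comparison. At a Benjamini-Hochberg adjusted p under 0.05 in limma, 0 of 69 were called at Day-3 (0% of all probe sets tested), Week-1 (0.028%), Week-2 (0.0839%) and End-stage (0.014%) against Day-0, in the mean of the 4 paced groups against Day-0 (0.301%), between late and early pacing (0%), and in the F test over the 5 groups (0%). Few probe sets of any kind were called, so these zeros read close to the background. In the mean of the paced groups the smallest adjusted p of a chaperone probe set was 0.106, for the dim gene DNAJC30. Its Day-0 dogs lay below the signal filter, so that value is a description. The next was 0.206, for DNAJC10. The half-width of the 95% confidence interval of a difference from Day-0 had a median of 0.42 on the log2 scale, and 62 of 69 intervals at Day-3, 62 at Week-1, 59 at Week-2 and 64 at End-stage lay wholly within a doubling or halving.

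At an unadjusted p under 0.05, 9 of 69 chaperone probe sets passed at Day-3 (8.07% of all), 7 at Week-1 (9%), 7 at Week-2 (11.2%), 1 at End-stage (8.23%), 9 in the mean of the paced groups (11.7%), 2 between late and early pacing (3.89%) and 4 in the F test (7.37%). The chaperone share was 13% at Day-3 and 10.1% at both Week-1 and Week-2, near the background. At End-stage the share was 1.45%, and the 1 probe set was that of DNAJC30, whose Day-0 dogs lay below the signal filter. Without Week-1 dog 1 and End-stage dog 1 no chaperone was called at adjusted p under 0.05, and the unadjusted Week-1 count went from 4 higher and 3 lower to 2 higher and 5 lower (3.1% and 4.66% of all). Between late and early pacing it was 1 higher and 1 lower with all dogs (2.15% and 1.73% of all). Without both dogs it was 2 higher and 0 lower (2.46% and 2.22%). The 3 dogs of a paced group lay wholly outside the Day-0 range in 8 chaperone probe sets at Day-3 (12.6% of all), 14 at Week-1 (16.1%), 11 at Week-2 (17.3%) and 8 at End-stage (14.3%). Without Week-1 dog 1 and End-stage dog 1, where ranges of 2 dogs separate more easily, the Week-1 count was 13 higher and 8 lower (10.4% and 15.2% of all) and the End-stage count 10 higher and 6 lower (11.4% and 15.4%). The median log2 difference over the 69 was 0.04 at Day-3, 0.03 at Week-1, 0.03 at Week-2 and -0.01 at End-stage, beside 0.00, -0.03, -0.01 and -0.03 over all probe sets tested.

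**Figure D1:**
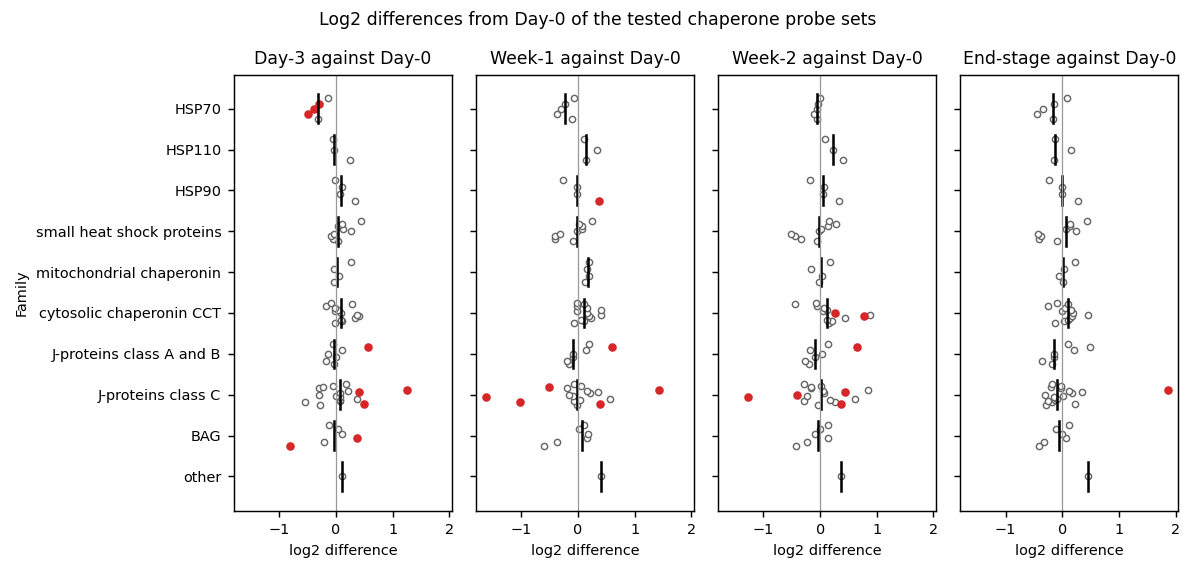
Log2 difference of each of the 69 tested chaperone probe sets from Day-0 (x axis), by family (y axis), with a panel for each paced group. Filled red points have an unadjusted limma p under 0.05, open points do not, and black bars are family medians; all 5 HSP70 points lie below 0 at Day-3 and Week-1, and the widest scatter is among class C J-proteins.

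In the HSP70 family all 5 probe sets, for HSPA8 and HSPA9, had estimates below Day-0 at Day-3 (49.2% of all probe sets) and at Week-1 (54.6%), with family medians of -0.32 and -0.24. HSPA1A, HSPA1L and HSPA2 had no probe set by the name rule, so these values do not cover them. HSPA8 is the constitutive HSP70 of the cytosol. Its second probe set read 11.93, 12.05 and 12.22 log2 units in the Day-0 dogs, 11.39, 11.52 and 11.80 at Day-3, and 11.61, 11.78 and 11.71 at Week-1. Both paced groups lay wholly below Day-0 there, and the difference at Day-3 was -0.50 (SE 0.21, unadjusted p = 0.035, adjusted p = 0.572). The third probe set gave -0.39 at Day-3, while the brightest gave -0.32 with overlapping dogs. HSPA8 has near-identical copies in mammalian genomes, and 2 of its probe sets carry the suffix for probes shared between transcripts, so its level is uncertain. HSPA9, the HSP70 of the mitochondrial matrix, read 9.42, 9.69 and 9.37 at Day-0, 9.12, 9.38 and 9.10 at Day-3, and 9.36, 9.34 and 9.07 at Week-1. The Week-1 dogs lay wholly below Day-0, and the dogs of the other paced groups overlapped it. The difference was -0.29 at Day-3 (SE 0.13, unadjusted p = 0.037; -0.19 without Day-0 dog 2) and -0.04 at Week-2. The second HSPA9 probe set was at 0.09 at End-stage, against -0.15 in the brightest. The family median was -0.05 at Week-2 and -0.17 at End-stage.

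HSP110 proteins exchange the nucleotide of HSP70. HSPH1 read 8.22, 8.0 and 8.23 at Day-0 and 8.32, 8.29 and 8.81 at Week-1, a difference of 0.33 (SE 0.17, unadjusted p = 0.072). The Week-1 and End-stage dogs lay above the Day-0 range and the Day-3 and Week-2 dogs overlapped it. At End-stage the estimate was 0.16, and -0.12 in the second probe set. HSPA4 had a mean signal of 23.7, just above the filter at 22.8, and its dogs overlapped Day-0 in every group.

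Among J-proteins of classes A and B, DNAJB4, a heat-inducible partner of HSP70 abundant in muscle, had the largest differences. It read 9.83, 9.92 and 10.25 at Day-0, 9.94, 11.11 and 10.65 at Day-3, 10.71, 10.50 and 10.59 at Week-1, 10.29, 10.59 and 11.07 at Week-2, and 10.70, 10.20 and 10.57 at End-stage. The Week-1 and Week-2 dogs all exceeded Day-0, and 1 dog each at Day-3 and End-stage fell inside its range. The mean of the paced groups exceeded Day-0 by 0.58 (SE 0.20, unadjusted p = 0.011, adjusted p = 0.235). DNAJB1, the classical heat-inducible HSP40, read 6.54 to 6.81 at Day-0 and 6.31 to 6.99 in the paced dogs, and its difference in the mean of the paced groups was -0.09 (95% CI -0.36 to 0.19). DNAJB6, which suppresses aggregation and is mutated in a muscular dystrophy, differed by 0.09 in the same contrast. The 3 probe sets of the mitochondrial DNAJA3 all had estimates below Day-0 in each paced group, with the largest, -0.35, at End-stage (unadjusted p = 0.065).

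Class C J-proteins share only the J domain and work at many sites. DNAJC10 and DNAJC3 serve the endoplasmic reticulum, as partners of its HSP70. DNAJC10, a disulfide reductase, read 8.38, 8.25 and 8.20 at Day-0, 8.34, 8.92 and 9.08 at Day-3, 8.65, 8.66 and 8.66 at Week-1, 8.77, 8.57 and 8.59 at Week-2, and 8.51, 8.51 and 8.46 at End-stage. Every paced dog but Day-3 dog 1 lay above the Day-0 range. The difference was 0.50 at Day-3 (SE 0.15, unadjusted p = 0.0051, adjusted p = 0.348) and 0.37 in the mean of the paced groups (SE 0.12, adjusted p = 0.206). Without Day-3 dog 1 it was called in both comparisons, with limma adjusted p = 0.0274 and 0.0333. DNAJC3, an inhibitor of the kinase PERK, read 6.04, 5.86 and 5.84 at Day-0 and 6.0 to 6.52 in the 12 paced dogs, with a mean difference of 0.38 (SE 0.13, unadjusted p = 0.0101). Only Week-1 dog 3 lay inside the Day-0 range. The second DNAJC3 probe set differed by 0.13. Of the 5 probe sets of J-proteins of the endoplasmic reticulum (DNAJB14, DNAJC1, DNAJC3, DNAJC10), 4 had estimates above Day-0 in the mean of the paced groups; DNAJC1 was below it.

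**Figure D2:**
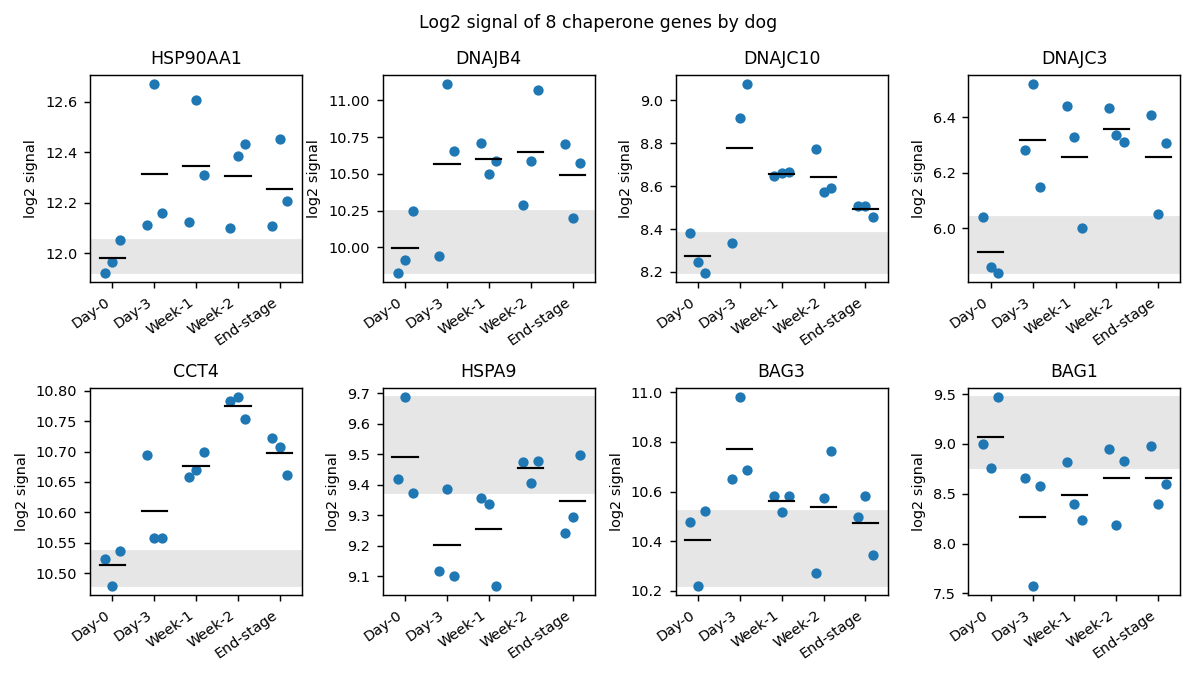
Log2 signal (y axis) of 8 chaperone genes, by group (x axis). Each point is a dog (mean of 3 isolations), the bar is the mean of 3 dogs, and the grey band is the Day-0 range; all 12 paced dogs lie above the band for HSP90AA1 and CCT4, and 11 of 12 for DNAJC10.

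3 dim class C genes had larger differences and larger error. DNAJC17, a J-protein of the nucleus tied to splicing, read 5.19, 5.71 and 5.33 at Day-0, 3.70, 4.0 and 3.65 at Week-1, 3.82, 4.45 and 4.16 at Week-2, and 4.90, 5.76 and 5.15 at End-stage. The Week-1 and Week-2 dogs lay wholly below Day-0, by 1.62 and 1.27 log2 units (SE 0.35), and the Day-3 and End-stage dogs overlapped it. DNAJC30, a mitochondrial J-protein linked to complex I repair, read 3.29, 3.59 and 3.67 at Day-0 and 5.15, 5.44 and 5.58 at End-stage, a difference of 1.87 (SE 0.44). All Day-3, Week-1 and End-stage dogs exceeded Day-0, and Week-2 dog 2, at 3.36, did not. DNAJC11, of the mitochondrial contact site, read 6.25, 6.14 and 6.32 at Day-0, 4.73, 5.47 and 5.47 at Week-1, and 6.72, 6.32 and 6.49 at Week-2. It was 1.02 below Day-0 at Week-1 in estimate (SE 0.26, unadjusted p = 0.0015), and its late pacing exceeded its early pacing by 0.83 (unadjusted p = 0.00045, adjusted p = 0.694). Mean signals were 28.2 for DNAJC17, 24.1 for DNAJC30 and 61.6 for DNAJC11, and the SD between isolations of a dog was 0.72, 0.76 and 0.70. All 3 Day-0 dogs lay below the filter of 22.8 for DNAJC30, as did all Week-1 and Week-2 dogs for DNAJC17, so each gene passed the filter only through the groups where it was high, and these differences are given as a description. With 16 added to the signal before log2, the End-stage difference of DNAJC30 was 1.01.

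**Figure D3:**
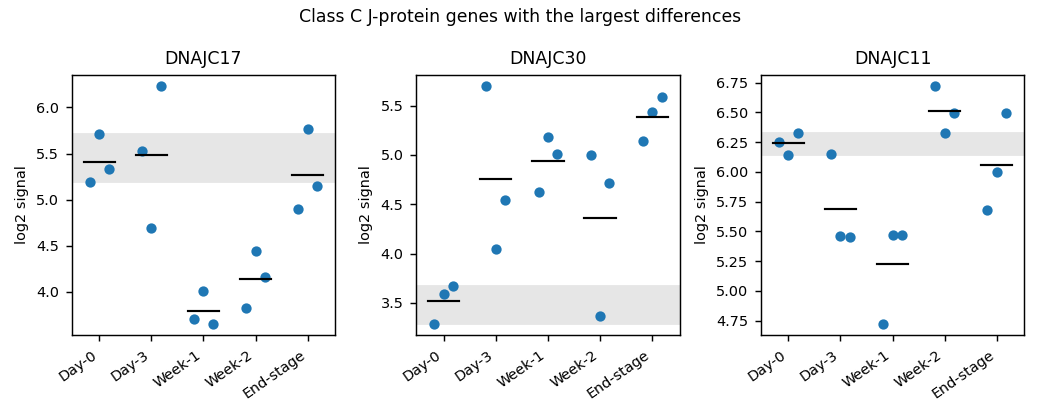
Log2 signal (y axis) of DNAJC17, DNAJC30 and DNAJC11 by group (x axis). Each point is a dog (mean of 3 isolations), the bar is the mean of 3 dogs and the grey band is the Day-0 range; DNAJC17 lies below the band at Week-1 and Week-2, and DNAJC30 above it in all paced dogs but 1.

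Other class C members stayed nearer to Day-0. DNAJC2, a ribosome-bound J-protein, was below Day-0 in all 4 estimates (-0.30, -0.16, -0.40 and -0.30) and had its smallest p at Week-2 (0.031). DNAJC9, a histone chaperone, had late values below early ones by 0.29 (unadjusted p = 0.016, adjusted p = 1.00). DNAJC7, a J-protein that also binds HSP90, was at -0.51 at Week-1 in its dimmer probe set (unadjusted p = 0.029) and at -0.20 in the brighter. DNAJC8 differed from Day-0 by -0.06 to 0.05 in the 4 groups.

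Several BAG proteins release the nucleotide from HSP70. BAG1 read 9.0, 8.76 and 9.47 at Day-0 and 8.66, 7.57 and 8.58 at Day-3, with no overlap and a difference of -0.80 (SE 0.29, unadjusted p = 0.015, adjusted p = 0.470). Without Day-3 dog 2 the difference was -0.46. At later times the BAG1 estimates were -0.59, -0.42 and -0.42 and dogs overlapped. BAG3 went the other way at Day-3: 10.65, 10.98 and 10.69 against 10.48, 10.22 and 10.52 at Day-0, a difference of 0.37 (SE 0.14, unadjusted p = 0.019, adjusted p = 0.514). Its estimates were 0.16, 0.13 and 0.07 at Week-1, Week-2 and End-stage. BAG2, an inhibitor of the ubiquitin ligase CHIP, had estimates of -0.22 to -0.37, while BAG5 and BAG6 lay within 0.18 of Day-0 in every group. BAG5 differed by -0.19 between late and early pacing (unadjusted p = 0.119).

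HSP90AA1, the inducible HSP90, read 11.92, 11.97 and 12.05 at Day-0. It read 12.11, 12.67 and 12.16 at Day-3, 12.12, 12.61 and 12.31 at Week-1, 12.10, 12.38 and 12.43 at Week-2, and 12.11, 12.45 and 12.21 at End-stage. All 12 paced dogs exceeded all Day-0 dogs; this held for 2 chaperone probe sets (0.909% of all probe sets), the other being CCT4, and for no chaperone in the lower direction (1.61% of all). The mean of the paced groups was 1.25-fold Day-0 (log2 difference 0.32, SE 0.13, 95% CI 0.04 to 0.61, unadjusted p = 0.0278, adjusted p = 0.336). HSP90AB1, the constitutive HSP90, differed by 0.02 in its brightest probe set (95% CI -0.28 to 0.32), and its dogs overlapped Day-0 in every group.

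Small heat shock proteins were among the brightest chaperones, and 0 of their 9 probe sets had an unadjusted p under 0.05 in any comparison. Over all probe sets the share was 3.89% to 11.7% in a single comparison. The share that passed in at least 1 comparison was not counted, so the 0 cannot be set against it. HSPB1 read 12.80, 13.38 and 13.44 at Day-0 and 12.74 to 13.54 in the paced dogs, with a difference of -0.05 in the mean of the paced groups (95% CI -0.47 to 0.37). HSPB7 differed by 0.07 and HSPB8 by 0.10, and HSPB6, with 11.07, 12.11 and 12.01 at Day-0, by 0.12 (95% CI -0.44 to 0.68). The 3 probe sets of HSPB3, a muscle-specific member, had estimates of -0.31 to -0.52 from Week-1 to End-stage. In its dimmest probe set the Week-2 dogs (8.11, 8.25 and 8.21) and End-stage dogs (8.56, 8.60 and 7.70) lay below Day-0 (8.74, 8.63 and 8.76), with an unadjusted p of 0.089 at Week-2.

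The mitochondrial chaperonin folds imported proteins, and its genes stayed near Day-0 in estimate. HSPD1 read 11.86, 11.89 and 12.02 at Day-0, and its mean over the paced groups differed by 0.02 (95% CI -0.17 to 0.22). HSPE1, its lid, differed by 0.00 (95% CI -0.24 to 0.24) in its brightest probe set. Its Week-1 dogs (9.76, 9.89 and 9.77) lay just above Day-0 (9.75, 9.54 and 9.65). The Week-2 estimate of -0.16 became 0.04 without Week-2 dog 1.

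In the cytosolic chaperonin, which folds actin and tubulin, 10 of 13 probe sets had estimates above Day-0 in the mean of the paced groups (47.2% of all probe sets), with a median of 0.09 (-0.02 over all probe sets). The 13 cover 7 genes, among them the CCT-like CCT8L2, so some genes are counted more than once. CCT4 read 10.52, 10.48 and 10.54 at Day-0, 10.69, 10.56 and 10.56 at Day-3, 10.66, 10.67 and 10.70 at Week-1, 10.78, 10.79 and 10.75 at Week-2, and 10.72, 10.71 and 10.66 at End-stage. The ranges did not overlap Day-0 in any paced group, and the difference at Week-2 was 0.26 (SE 0.09, unadjusted p = 0.0095, adjusted p = 0.264). The other subunits of the same ring did not follow it closely: TCP1 differed by -0.06 in the mean of the paced groups (95% CI -0.24 to 0.11), CCT5 by 0.01, CCT2 by -0.02, CCT8 by 0.06 and CCT3 by 0.09. Differences between subunits were not tested. CCT8L2, a dim CCT-like gene, had a mean signal of 31.9 and, among the brightest probe sets of this family, the largest differences at Day-3 (0.28) and Week-2 (-0.44), with dogs that overlapped Day-0. A dim CCT3 probe set gave 0.78 at Week-2 (unadjusted p = 0.023), where the brightest gave 0.12. Outside the families, HSPBAP1 had estimates of 0.10, 0.41, 0.38 and 0.45 from Day-3 to End-stage, with overlapping dogs and an unadjusted p of 0.081 at End-stage.

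**Figure D4:**
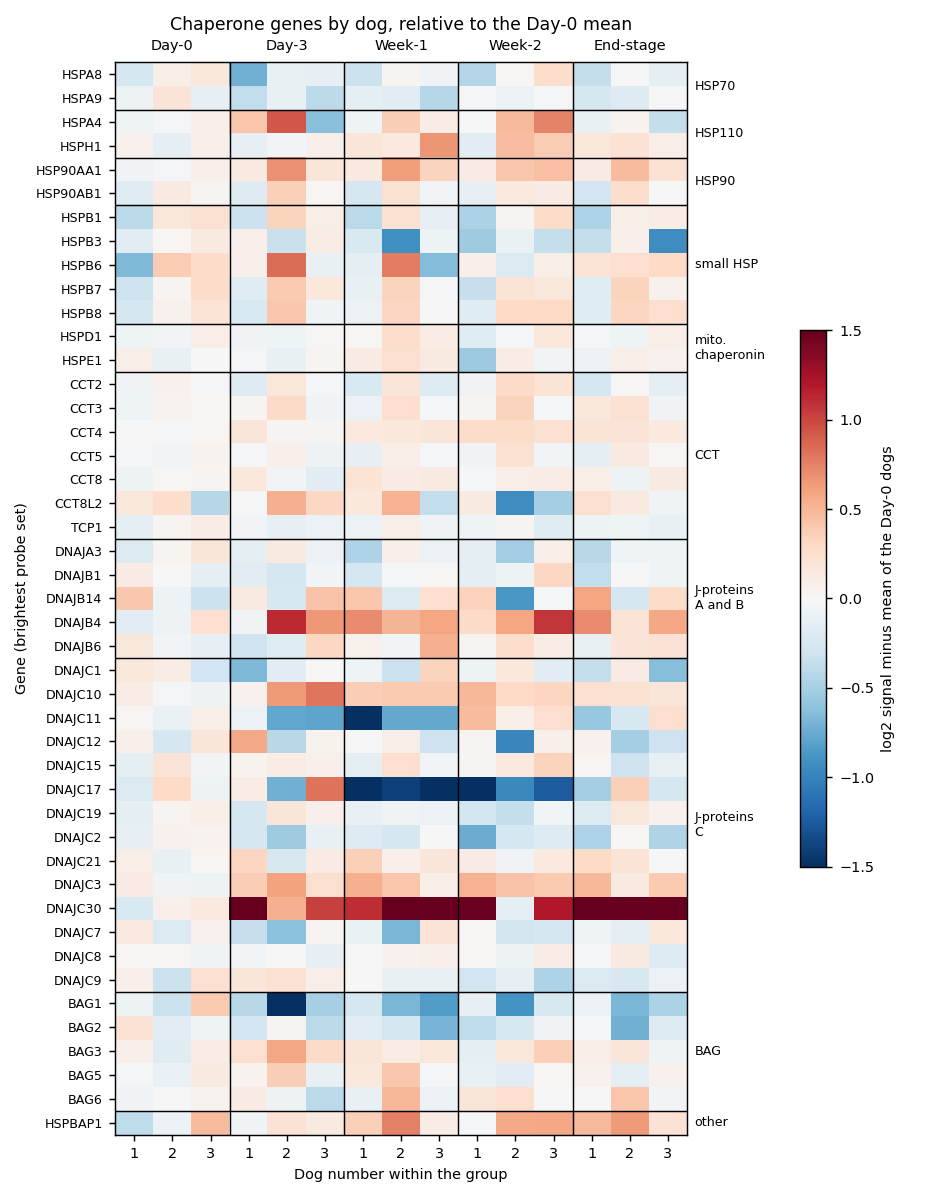
Log2 signal of 45 chaperone genes (rows, brightest probe set, by family) in 15 dogs (columns, by group), minus the mean of the 3 Day-0 dogs; colours saturate at 1.5 in either direction. Most rows are pale, DNAJC30, DNAJC17 and DNAJC11 have the strongest colours, and HSP90AA1 is above 0 in all paced dogs.

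A pattern by dog number ran through some of the bright chaperones. In 8 of 69 probe sets (11.6%, beside 3.13% of all probe sets tested) dog 1 was the lowest of its group in all 5 groups. These were both bright probe sets of HSP90AB1, those of HSPB1, HSPB7 and HSP90AA1, and the brightest of HSPB8, HSPA8 and CCT2. The other probe sets of HSPB8, HSPA8 and CCT2 did not have this order. In 3 others (4.35%, beside 1.64% of all) dog 2 was the lowest in all 5 groups: both of DNAJC7 and the third of HSP90AB1. HSPB1 read 12.74 to 12.89 in the 5 dogs numbered 1 and 13.09 to 13.54 in the other 10. The summed signal of 12 cardiomyocyte markers was also lowest in dog 1 of every group, at 82961 to 89205, against 101744 to 132439 in the other dogs. The labels do not say what dogs of a number share, and the part of the markers in the chaperone pattern was not tested.

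**Figure D5:**
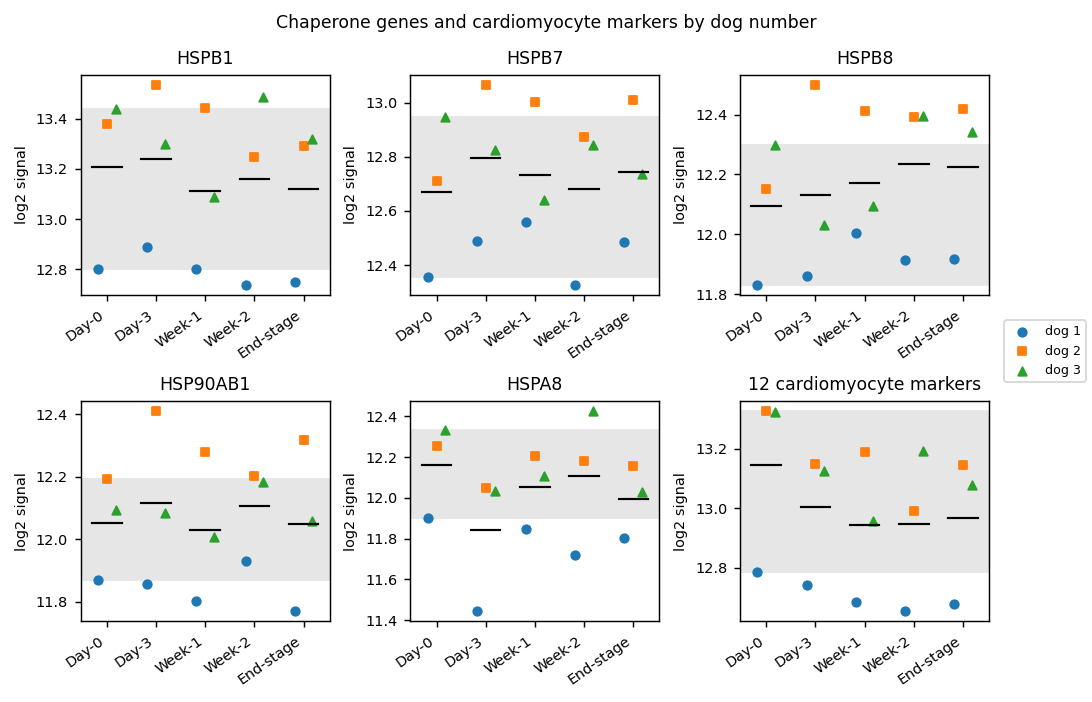
Log2 signal (y axis) of 5 chaperone genes (brightest probe sets) and the mean log2 signal of 12 cardiomyocyte markers, by group (x axis) and dog number (colour and shape; bars are group means and grey bands Day-0 ranges). Dog 1 is the lowest of its group in every panel and group.

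All 12 cardiomyocyte markers had estimates below Day-0 in each paced group, with medians of -0.11, -0.19, -0.15 and -0.16, while their summed signals overlapped. Of 5 tested fibroblast markers 4 were above Day-0 in estimate in each group, with medians of 0.50, 0.51, 0.40 and 0.43. The summed endothelial markers were 4470 to 4937 at Week-1 against 5211 to 6122 at Day-0, and the summed smooth muscle and pericyte markers 5102 to 5437 at End-stage against 6369 to 8239. Of 8 macrophage markers 7, 6, 6 and 5 were above Day-0 in estimate from Day-3 to End-stage. Over all probe sets tested, 50.8%, 45.4%, 49.2% and 45.7% were above Day-0 in these groups. No marker passed the adjusted test, and the part of cell make-up in the chaperone values was not tested.

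Genes of the wider chaperone network were also without a call at adjusted p under 0.05. HSF1, the main activator of heat shock genes, was above Day-0 by 0.40 at Week-1 (SE 0.12, unadjusted p = 0.0053, adjusted p = 0.290), with estimates of 0.38 and 0.40 at Week-2 and End-stage and 0.08 at Day-3. HSF2 was 0.37 above Day-0 at Day-3 in estimate, and HSBP1, a repressor of HSF1, -0.15. Of 18 tested cochaperones, 2 were higher and 0 lower at unadjusted p under 0.05 at Day-3, 2 and 0 at Week-1, 0 and 1 at Week-2, and 1 and 1 at End-stage. Over all probe sets 3.72% were higher and 4.35% lower at Day-3, and 3.9% and 5.1% at Week-1. The shares were 5.03% and 6.14% at Week-2, and 3.7% and 4.53% at End-stage. The 2 cochaperones at Week-1 were HSP90B1, the HSP90 of the endoplasmic reticulum, at 0.67 and AHSA1, which stimulates the ATPase of HSP90, at 0.36. Of 10 prefoldin and chaperonin partners 1 was lower at unadjusted p under 0.05 at Day-3 (4.35% of all probe sets), TBCE (-0.38). At Week-1 1 was higher (3.9% of all probe sets), PFDN5 (0.28). All 6 tested genes of mitochondrial protein quality control had estimates below Day-0 at Week-1 (54.6% of all probe sets). AFG3L2, a protease of the inner membrane, was at -0.55 at Week-2 (SE 0.14, unadjusted p = 0.0014, adjusted p = 0.129). CRYAB, a small heat shock protein abundant in heart that the name rule leaves out, differed by -0.08 in the mean of the paced groups (SE 0.18).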

How the data were processed

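Signals were the linear intensity values that the authors deposited, made with GCOS 1.4 and MAS5 per the submitters' processing notes; the genome build is not given in the sources used here. Array trimmed means were 150.02 to 150.026, so arrays were already scaled. Intensities were taken to log2 and averaged over the 3 isolations of a dog. The 77 control probe sets and the lowest 40% by mean log2 signal (below 22.8) were left out. limma 3.58.1 in R 4.3.3 fitted 1 mean per group to 15 dogs (lmFit, eBayes with an intensity trend, two-sided, Benjamini-Hochberg over 14302 probe sets), after tests on simulated data; p-values without the word adjusted are unadjusted. Late pacing is Week-2 and End-stage, early pacing Day-3 and Week-1. The comparisons with Day-0 share the same 3 control dogs.

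Gene names come from a 2016 annotation; 43 of the 46 genes matched RefSeq by gene ID and 3 by symbol. Genes with several probe sets are described by the brightest. Genes named whatever their result (29 of 40 had a probe set), the smallest p-values of each comparison and the largest difference of each family are described. The members and lists were chosen with earlier results of these data known. Promoter and protein sequences were not analysed here. Alternatives covered the log offset, normalization, filter, variance model, replicates, dogs and members. Replicate numbers were not taken as pairs: in each comparison with Day-0, at least 1 same-numbered pair correlated below 0.1, although every pair exceeded 0.1 between Day-3 and Week-1, Day-3 and Week-2, and Week-2 and End-stage.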

Additional observations from a re-analysis of the deposited data

How the results depend on the processing

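With all 45 arrays fitted and the dog as a random block (correlation 0.29), chaperone probe sets were called at Day-3 (2, BAG1 and BAG3), Week-1 (3, HSP90AA1, DNAJB4 and DNAJC17), Week-2 (2, CCT4 and DNAJB4), End-stage (1, DNAJC30), in the mean of the paced groups (5, HSP90AA1, DNAJB4, BAG1, DNAJC10 and DNAJC30) and in the F test (1); the cause was not tested. The random block fit used 1 correlation for all probe sets. Where isolations of a dog agree more closely than that, they count partly as replicates and the SE is too small. HSP90AA1 had an SD of 0.10 between isolations, and its Day-3 dogs read 12.11, 12.67 and 12.16. DNAJC17 went the other way, with 0.72 between isolations and Week-1 dogs at 3.70, 4.0 and 3.65. The correlation of each called gene was not tested, so these calls are a description. Quantile normalization called 1 (HSP90AA1) in the mean of the paced groups. Leaving out single dogs gave 0 to 1 calls at Day-3 and in the mean of the paced groups, both DNAJC10 without Day-3 dog 1, and 0 elsewhere. Calls over all probe sets were not counted for the alternatives named so far, so these chaperone counts have no background share beside them. Median centring moved the chaperone median to -0.018 at Day-3 and -0.053 at Week-2. Leaving out single dogs gave medians of -0.019 to 0.053 at Day-3, -0.052 to 0.063 at Week-1, -0.0087 to 0.10 at Week-2, -0.057 to 0.016 at End-stage, -0.0089 to 0.043 in the mean of the paced groups and -0.043 to 0.016 between late and early pacing. HSPE1 at Week-2 was 0.035 without Week-2 dog 1 and -0.29 without Week-2 dog 2. The other counts called stayed at 0 under the other alternatives run.

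With the dog number as a replicate block, 0 chaperone probe sets were called in every comparison and the medians were the same, 0.04 at Day-3; over all probe sets, calls in the mean of the paced groups went from 43 to 219, and at Week-2 from 12 to 88. Counts at unadjusted p under 0.05 were added after seeing the data. In the mean of the paced groups 13 chaperone probe sets passed with the block (14.6% of all probe sets) and 9 without it (11.7%). At End-stage 6 passed with the block (11.2% of all probe sets) and 1 without it (8.23%). With the block the SE of the paced mean went from 0.20 to 0.077 for HSPB1, and the unadjusted p of HSP90AA1 from 0.0278 to 0.0022 (adjusted p = 0.0783). Signal near the filter limits DNAJC30, DNAJC17 and HSPA4 most.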

Other observations

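The 2 HSP90 genes of the cytosol were set against each other within each dog, a contrast chosen after their values were seen and therefore given as a description. HSP90AA1 minus HSP90AB1 (brightest probe sets, difference of log2 signals, no level comparison between the genes) was 0.05, -0.23 and -0.04 in the Day-0 dogs. It was 0.26, 0.26 and 0.08 at Day-3, 0.32, 0.33 and 0.30 at Week-1, 0.17, 0.18 and 0.25 at Week-2, and 0.34, 0.13 and 0.15 at End-stage. All 12 paced dogs thus lay above all 3 Day-0 dogs, although dog 1 was the lowest of its group for both genes.

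Several tested probe sets were available for 17 genes, and in 5 of them the probe sets disagreed in sign at Day-3 (CCT2, CCT5, HSP90AB1, HSPD1 and HSPE1). At Week-1 there were 3 such genes (CCT2, CCT5 and CCT8), at Week-2 5 (CCT8, HSP90AB1, HSPA9, HSPD1 and HSPE1) and at End-stage 5 (CCT2, CCT8, HSPA9, HSPD1 and HSPH1). In the mean of the paced groups there were 4 (BAG5, CCT2, CCT8 and HSP90AB1).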
